A study of Rattus norvegicus with 11 samples.

Results

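The 9 interferon-stimulated genes Isg15, Mx1, Mx2, Ifit2, Ifit3, Irf7, Rsad2, Usp18 and Oas1a were read from a table of 32623 genes by their gene names, and each name stood on a single gene. WBCs, the white blood cells left after red cell lysis, were taken from male Wistar rats. Collagen-induced arthritis (CIA) is a joint disease provoked by an injection of type II collagen in incomplete Freund's adjuvant (IFA-CII), which the 4 CIA rats received with a boost on day 7. Around day 8, while Nampt was overexpressed, each of these rats gave a Nampt++ sample, and around day 14, once Nampt had returned to the level of the controls, a Nampt+ sample. By their sample labels, samples of the same number in these groups come from 1 rat. The authors assigned the CIA samples by their own PCR of Nampt, and 3 normal healthy rats gave the control samples, whose sampling day is not given in the sources used here. Poly(A) RNA was sequenced in all 11 samples, and total counts ranged from 65340027 to 85819418 per sample.

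Interferons bind receptors on the cell surface, whose JAK and TYK2 kinases activate STAT proteins. With IRF9 these form a complex that binds the interferon-stimulated response element in the promoters of genes such as these 9. Their products hinder viral replication or adjust the response itself, and in blood such genes are read together as an interferon signature, which is known from lupus and from some patients with rheumatoid arthritis.

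The extraction text deposited with the samples speaks of retina. The 10 retina markers summed to 0.0780 to 1.93 FPKM per sample, and Crx, a transcription factor of photoreceptors, was listed at 0 in every sample, whereas the T cell marker Cd3g averaged 234 FPKM. FPKM, the fragments of a gene scaled by its length and the sample's total, allows levels to be compared between genes. Counts of 11 haemoglobin genes made up 6.84% to 42.8% of a sample's total, a share that differed more between samples than the total did. In RNA of mixed blood cells, fewer cells of a type and less RNA per cell cannot be told apart.

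By the median FPKM over the 11 samples, Ifit3 stood first at 396, followed by Irf7 at 203 and Isg15 at 166. Mx1 at 39.6, Ifit2 at 39.0 and Rsad2 at 33.1 formed the middle of the order. Oas1a at 11.8, Usp18 at 11.02 and Mx2 at 4.34 closed it. Some neighbours in this order often changed places: Irf7 was above Isg15 in 7 of 11 samples, Mx1 above Ifit2 in 6 and Ifit2 above Rsad2 in 7. Ifit3 was above Irf7 in 9 samples, and Usp18 was above Mx2 in all 11.

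Promoter sequences were available for Ifit3, Irf7, Rsad2, Oas1a and Mx1 in RefSeq's table of the GRCr8 assembly, and Isg15, Mx2, Ifit2 and Usp18 have no entry in it. The 160 bases before each gene's start are shown because the members that follow each other over the samples and those that do not can be set beside their regulatory sequence. Capitals mark the core of the interferon-stimulated response element, searched as TTTC, any 2 bases and TTTC, or, on the other strand, GAAA, any 2 bases and GAAA. Each sequence is written 5′ to 3′ on the gene's strand.
Ifit3, chr1:241527166-241527325, plus strand: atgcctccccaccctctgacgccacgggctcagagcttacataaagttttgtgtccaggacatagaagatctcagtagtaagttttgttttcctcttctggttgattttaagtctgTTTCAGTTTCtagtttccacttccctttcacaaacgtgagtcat
Irf7, chr1:205800024-205800183, minus strand: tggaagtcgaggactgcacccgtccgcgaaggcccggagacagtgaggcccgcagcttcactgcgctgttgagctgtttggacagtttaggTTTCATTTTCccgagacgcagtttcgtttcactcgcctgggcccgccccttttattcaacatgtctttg
Oas1a, chr12:41330306-41330465, plus strand: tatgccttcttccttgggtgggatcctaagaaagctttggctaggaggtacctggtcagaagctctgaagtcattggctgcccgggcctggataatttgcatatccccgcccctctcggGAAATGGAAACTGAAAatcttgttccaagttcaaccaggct
Rsad2, chr6:48788121-48788280, minus strand: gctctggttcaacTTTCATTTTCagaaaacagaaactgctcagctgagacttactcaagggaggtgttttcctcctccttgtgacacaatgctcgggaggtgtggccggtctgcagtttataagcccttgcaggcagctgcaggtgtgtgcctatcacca
Mx1, chr11:50294607-50294766, minus strand: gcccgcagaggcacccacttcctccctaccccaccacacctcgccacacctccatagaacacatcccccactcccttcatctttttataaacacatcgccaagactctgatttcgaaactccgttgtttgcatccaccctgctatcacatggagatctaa

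The core stood at -44 to -35 from the start of Ifit3 and at -69 to -60 from that of Irf7. Rsad2 held it farther out, at -147 to -138. Oas1a held it at -41 to -32 and again at -35 to -26, as overlapping matches on the other strand. Within 250 bases before the start, 4 of the 5 members held the core, against 3.41% of all 33469 promoters in the table and 32 of the 75 promoters found for a list of other interferon-stimulated genes. These letters are not in the window of Mx1, which says nothing about the factors that bind there.

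Isg15 codes for a ubiquitin-like protein that is joined to other proteins. It was at 349, 297 and 54.3 FPKM in controls 1 to 3, at 250, 75.5, 142 and 166 FPKM in Nampt++ samples 1 to 4, and at 63.2, 222, 134 and 372 FPKM in Nampt+ samples 1 to 4. Every group thus held both high and low samples, and the lowest control lay below all CIA samples. Usp18, the protease that removes Isg15 from its targets and restrains the interferon receptor, was at 15.7, 17.2 and 6.09 FPKM in controls. It was at 11.02, 5.88, 12.0 and 20.2 FPKM in Nampt++ samples and at 4.70, 8.48, 9.64 and 13.8 FPKM in Nampt+ samples. The 3 lowest samples of Usp18 were control 3, Nampt++ 2 and Nampt+ 1, the same as for Isg15.

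Ifit2 and Ifit3 code for tetratricopeptide proteins that act against viral RNA, and lie next to each other on chromosome 1 (in the deposited table at chr1:252894663-252900726 and chr1:252906234-252911382, plus strand). Ifit3 was at 451, 497 and 87.6 FPKM in controls, at 488, 92.7, 396 and 370 FPKM in Nampt++ samples, and at 107, 421, 279 and 533 FPKM in Nampt+ samples. Ifit2 was at 50.0, 48.5 and 12.6 FPKM in controls, at 52.5, 10.9, 39.0 and 44.96 FPKM in Nampt++ samples, and at 12.8, 26.98, 30.0 and 44.3 FPKM in Nampt+ samples. For both genes control 3, Nampt++ 2 and Nampt+ 1 lay apart from the other samples: their highest Ifit3 level was 107 FPKM, and the next sample stood at 279 FPKM.

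Irf7, the transcription factor that amplifies interferon production, was at 267, 246 and 97.7 FPKM in controls, at 279, 174, 208 and 178 FPKM in Nampt++ samples and at 98.9, 203, 169 and 232 FPKM in Nampt+ samples. Control 3 and Nampt+ 1 were its lowest samples, and its highest level was 2.85 times its lowest, the narrowest range of the 9 genes. Oas1a, an oligoadenylate synthetase that senses double-stranded RNA, was at 28.0, 18.2 and 8.08 FPKM in controls, at 46.5, 8.02, 11.8 and 9.55 FPKM in Nampt++ samples and at 8.06, 14.1, 11.04 and 14.3 FPKM in Nampt+ samples. Nampt++ 1 stood above all others for this gene. Oas1k, a related gene chosen after its values were seen, was also highest there, at 83.6 FPKM against 5.33 to 23.2 FPKM in the other samples. How reads shared by the Oas1 genes, or by the Ifit genes, were counted is not stated, so these levels are uncertain.

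Mx1 and Mx2, dynamin-like GTPases that block viruses, lie on chromosome 11 on opposite strands (chr11:37891156-37914983, minus, and chr11:38035450-38059950, plus, in the deposited table). Mx1 was at 70.6, 20.6 and 59.8 FPKM in controls, at 30.1, 39.6, 21.9 and 33.6 FPKM in Nampt++ samples, and at 49.9, 12.5, 47.9 and 55.2 FPKM in Nampt+ samples. Mx2 was at 14.6, 2.95 and 5.80 FPKM in controls, at 1.82, 4.35, 1.98 and 3.77 FPKM in Nampt++ samples, and at 4.34, 1.22, 5.33 and 6.18 FPKM in Nampt+ samples. Control 1 was the highest and Nampt+ 2 the lowest sample of both, and control 3, the lowest for Isg15, Ifit3 and Irf7, was the second highest for Mx1.

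Rsad2, the enzyme viperin that makes a chain-terminating nucleotide, was at 33.1, 45.1 and 40.4 FPKM in controls, at 22.04, 92.4, 28.4 and 18.5 FPKM in Nampt++ samples, and at 84.4, 99.3, 23.1 and 29.3 FPKM in Nampt+ samples. Nampt++ 2, Nampt+ 1 and Nampt+ 2 were at 84.4 FPKM or more, and the other 8 samples were at 45.1 FPKM or less. Cmpk2, its neighbour in the genome and a nucleotide kinase, ranged only from 4.52 to 10.9 FPKM, with its highest level in Nampt++ 2.

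**Figure D1:**
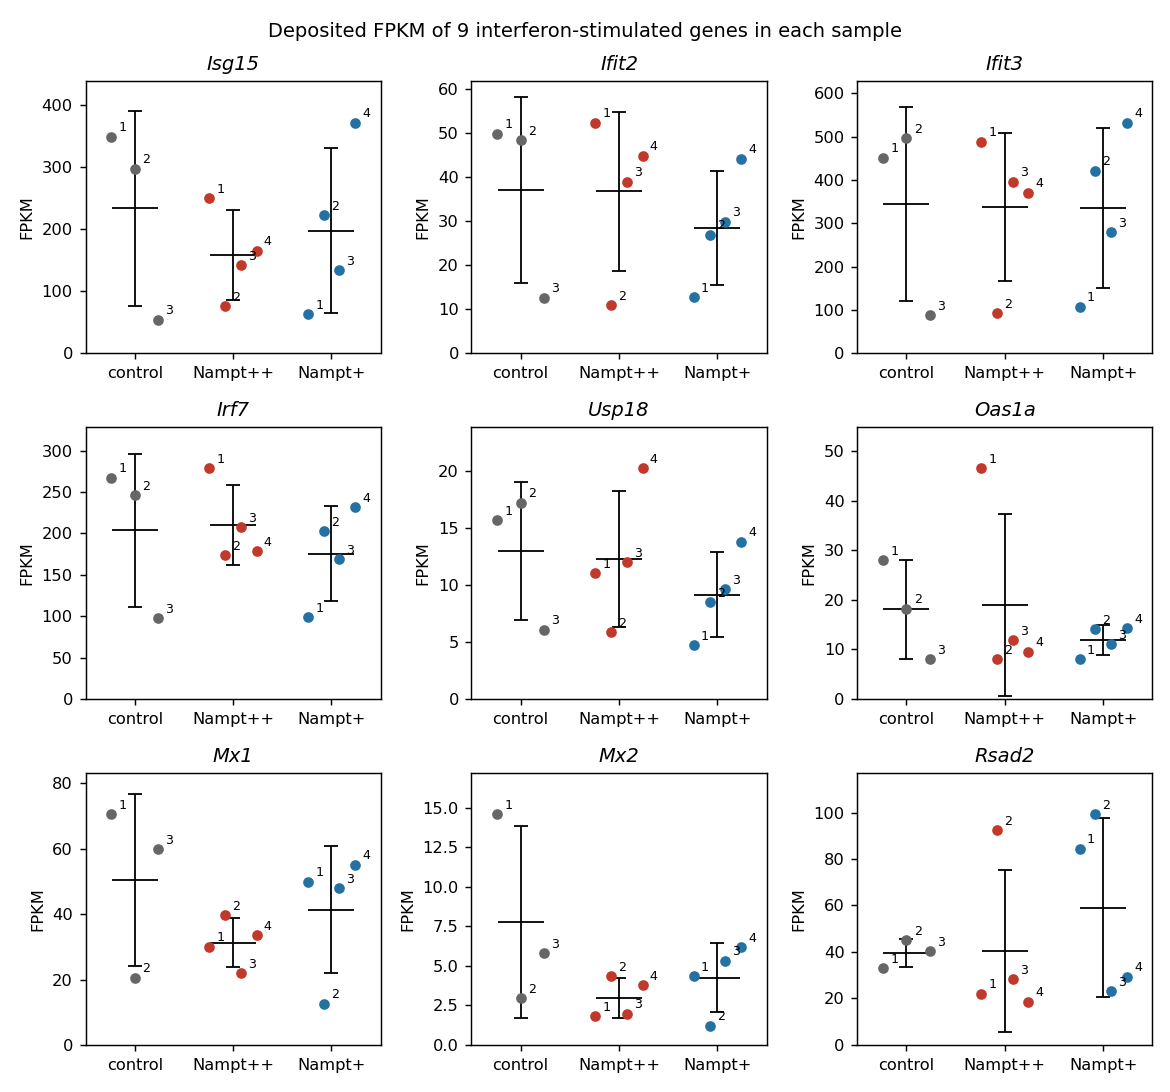
Deposited FPKM (linear axes from 0) of the 9 genes in each sample. Points are samples with their replicate number, horizontal bars are group means and whiskers are SDs (n = 3 controls, 4 Nampt++ and 4 Nampt+). The groups overlap for every gene, and for Ifit3 control 3, Nampt++ 2 and Nampt+ 1 lie at 87.6 to 107 FPKM, below all others.

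The Nampt++ samples were compared with the controls to ask how early CIA differs from health. Mx2 was the only member called, with a group mean 0.383 times that of controls, at 2.98 ± 1.27 FPKM (SD, n = 4) against 7.79 ± 6.08 (SD, n = 3). Calls follow the study's thresholds, for which the mean FPKM of a group had to be more than 2 times or less than 0.5 times that of the other, and the p of edgeR's quasi-likelihood test under 0.05 before adjustment. The call of 1 in 9 stands beside 0.686% of the 11219 genes tested (0.357% for lower genes and 0.33% for higher ones), and an unadjusted p under 0.05 was seen in 1.57% of them. Its log2 fold change was -1.37 (SE 0.56), the unadjusted edgeR p was 0.0402, the Benjamini-Hochberg adjusted p was 0.9999, and an exact two-sided permutation of log2(FPKM + 1) gave p = 0.171, where the smallest possible is 0.0571. Without control 1, which held the highest Mx2 level, the log2 fold change was -0.49 and the edgeR p was 0.317. The call was also lost without Nampt++ 1, Nampt++ 3 or Nampt++ 4, and Mx2 lies below the level of 10 FPKM under which the study did not rely on differences.

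Of the other members, Isg15 (158 ± 72.2 against 233 ± 157 FPKM) had a log2 fold change of -0.77 (SE 0.66) and Mx1 (31.3 ± 7.39 against 50.3 ± 26.3 FPKM) one of -0.63 (SE 0.37). Leaving out control 3 gave an edgeR p of 0.0105 for Isg15, and leaving out control 2 gave one of 0.0238 for Mx1, so that 2 members were called in each case. Ifit2, Ifit3, Irf7, Usp18 and Oas1a had log2 fold changes between -0.29 and -0.09, and Rsad2 one of 0.06. The log2 fold change was negative in 8 of the 9 members (6 by limma on log2 of FPKM), with a median of -0.27, whereas 49.6% of all genes tested were negative, with a median of 0.00. Without control 2 only 3 of the 9 were negative, and the median was 0.18. No member separated the groups without overlap, as 1.1% of all genes tested did. At an adjusted p under 0.05 edgeR called 0 of all genes in each of the 3 comparisons, and DESeq2 called 5, 4 and 5, none of them a member.

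The Nampt+ samples were compared with the same controls. None of the 9 members was called, beside 0.497% of 11269 genes, and none had an unadjusted edgeR p under 0.05, as 0.87% of all genes did. DESeq2 called none either. Mx2 came closest, at 4.27 ± 2.17 (SD, n = 4) against 7.79 ± 6.08 FPKM (SD, n = 3), with a log2 fold change of -0.95 (SE 0.51), an unadjusted edgeR p of 0.0987 and an exact permutation p of 0.4. It was called without control 2, at a log2 fold change of -1.27. Rsad2, at 59.0 ± 38.5 against 39.6 ± 6.05 FPKM, had a log2 fold change of 0.85 (SE 0.74), which became 0.0062 without Nampt+ 2. The log2 fold changes of the other members ran from -0.55 in Usp18 to -0.03 in Ifit3, and 8 of 9 were negative beside 50.7% of all genes, but 4 of 9 without control 2. Both comparisons use the same 3 controls, so their counts of negative members are not separate evidence.

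The comparison of Nampt+ with Nampt++ samples followed the same rats from about day 8 to day 14. Its fit held no term for the rat, so SEs and p-values treat the samples as independent. None of the 9 members was called, beside 0.642% of 11219 genes, and none had an unadjusted edgeR p under 0.05, as 2.28% of all genes did. DESeq2 called none. Log2 fold changes were 0.79 (SE 0.81) for Rsad2, 0.54 (SE 0.56) for Isg15, 0.43 (SE 0.39) for Mx2, 0.34 (SE 0.30) for Mx1 and 0.25 (SE 0.61) for Ifit3. Irf7, Ifit2, Usp18 and Oas1a lay between -0.43 and -0.06. Without Nampt++ 2 the log2 fold change of Rsad2 was 1.77 and it was called, where the edgeR p was 0.0476. Without Nampt+ 2 it was -0.044. The median over the members was 0.25 with all samples, -0.27 without Nampt+ 2 and -0.036 without Nampt++ 2, and 0.41% of all genes, but no member, separated the groups without overlap.

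**Figure D2:**
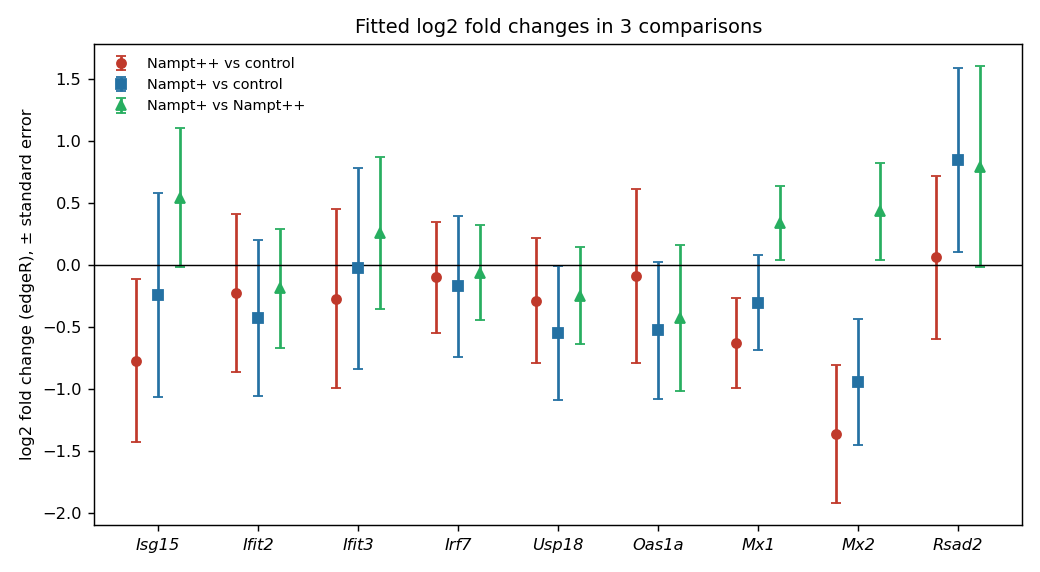
Log2 fold changes of the 9 genes (vertical axis) in 3 comparisons, fitted by edgeR on the counts, with bars of 1 standard error. Mx2 in Nampt++ samples against controls, at -1.37, is the value farthest from 0.

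The rats did not move together. In rat 1 Isg15 at Nampt+ status was 0.253 times its FPKM at Nampt++ status, Ifit3 was 0.220 times and Oas1a 0.173 times. In rat 2 the same ratios were 2.94, 4.55 and 1.76. Isg15, Ifit2, Ifit3, Irf7, Usp18 and Oas1a were all lower at the second sampling in rat 1 (ratios 0.173 to 0.427) and all higher in rat 2 (1.16 to 4.55). Mx1 and Mx2 went the other way in these rats, at 1.66 and 2.39 times in rat 1 and at 0.317 and 0.280 times in rat 2. In rat 4 the 6 genes had ratios of 0.682 to 2.25, and Mx1 and Mx2 both had ratios of 1.64. In rat 3 the ratios of the 6 genes lay between 0.705 and 0.947, and those of Mx1 and Mx2 were 2.19 and 2.69. Rsad2 was 3.83 times as high at the second sampling in rat 1 and between 0.814 and 1.58 times in the other rats. These ratios rest on 1 sample at each time and carry no test. They also rest on the match by number. Over all genes tested, departures from the group means correlated at -0.19 and -0.18 between the samples of rats 1 and 2.

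Most members varied more between individual samples than the median gene. The highest level was 12.0 times the lowest for Mx2, 6.86 times for Isg15, 6.08 times for Ifit3 and 5.80 times for Oas1a, and the median over 11242 genes with a mean of at least 1 FPKM was 3.33. Irf7, at 2.85, was below that median, at percentile 34.0 of these genes. The other members lay between percentile 70.3 (Usp18) and 93.0 (Mx2).

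Over the 11 samples the members formed sets, chosen here after their values were seen. On the scale of log2 CPM with TMM factors, which corrects for the makeup of each library, the 15 pairs among Isg15, Ifit2, Ifit3, Irf7, Usp18 and Oas1a had Pearson's r between 0.58 and 0.98 and Spearman's rho between 0.55 and 0.95, and r was between 0.33 and 0.94 without the 2 samples farthest from the median of the first gene of a pair. Mx1 and Mx2 had a Pearson r of 0.89 and a rho of 0.82, and r was 0.84 without the 2 samples farthest from the median of Mx1. Between Mx1 or Mx2 and the 6 genes, rho ran from -0.62 to -0.16, and between Rsad2 and the other 8 from -0.13 to 0.37. Without the 2 samples farthest from the median of the first gene of a pair, r ran from -0.57 to 0.055 for Mx1 or Mx2. For Rsad2 it then ran from -0.27 to 0.64, the latter with Irf7, so the sets are less clearly apart. These are descriptions without a p: 8 of the 11 samples come in pairs from 4 rats, and all share the same normalization. Control 3 and Nampt+ 1 were among the 3 lowest samples of all 6 genes on this scale too, and Nampt++ 2 was the third for Isg15, Ifit2, Ifit3 and Usp18.

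The low samples of the 6 genes were also low in the sum of neutrophil markers, but the high samples did not follow this sum throughout. The 9 neutrophil markers summed to 2083 FPKM in control 3, 2903 in Nampt++ 2 and 3697 in Nampt+ 1, the 3 lowest sums, and to 5074 to 40179 FPKM in the other samples. By group the sums ranged from 2083 to 14003 FPKM in controls, 2903 to 40179 in Nampt++ samples and 3697 to 15455 in Nampt+ samples. Csf3r, the receptor for granulocyte colony-stimulating factor, was at 42.4, 53.6 and 61.3 FPKM in those 3 samples and at 1072 FPKM in Nampt++ 1, the sample with the highest Oas1a. S100a8, S100a9, Cxcr2, Mmp8 and Mmp9 were also lowest in those 3 samples. S100a9 and S100a8 made up 1323 and 638 FPKM of the sum in control 3. Fcgr3a of the same list was at 14.7, 28.3 and 44.2 FPKM in those 3 samples, the last its highest level. It was lowest in Nampt++ 1, at 3.63 FPKM. Lcn2 was lower in control 1 and Nampt+ 3 than in Nampt+ 1. Control 1, the second highest sample for Isg15, Ifit2, Irf7 and Oas1a, had a neutrophil sum of 7190 FPKM, the fifth lowest. The 7 monocyte markers found summed to 4338 FPKM in control 3, 5546 in Nampt+ 1 and 5843 in Nampt++ 2, but also to only 5654 FPKM in control 1, and to 6575 to 14011 FPKM in the other samples. By group they ranged from 4338 to 10809 FPKM in controls, 5843 to 12973 in Nampt++ samples and 5546 to 14011 in Nampt+ samples. Of the monocyte sums of control 3, Nampt+ 1 and Nampt++ 2, Lyz2 alone made up 3978, 5143 and 5409 FPKM. Csf1r did not follow the sum: at 68.1, 72.3 and 76.0 FPKM there, it was higher than in any other sample but Nampt++ 4. Cd68 was lowest in Nampt+ 2 at 22.2 FPKM and in control 1 at 35.4 FPKM. Ltf, a granule gene of maturing neutrophils, was at or near 0 in every sample. The part of neutrophils and monocytes in the result was not tested.

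Of the 6 erythroid markers found in the table, out of 9 listed, Ahsp, Bpgm, Klf1 and Slc4a1 were higher in each of the 3 samples with the highest Rsad2 than in any other sample, and Hbb and Alas2 were not. Alas2, the first enzyme of haem synthesis in red cells, was at 925 FPKM in Nampt+ 1, below controls 1 and 2 at 1011 and 1095 FPKM. The 6 markers, of which Hbb made up 96.9% to 98.3% of the sum, added up to 97601 FPKM in Nampt++ 2 and 114432 FPKM in Nampt+ 2, the 2 highest sums, and to 57722 FPKM in Nampt+ 1, below both control 1 and control 2. Ahsp, the chaperone of alpha globin, was at 277, 233 and 481 FPKM in Nampt++ 2, Nampt+ 1 and Nampt+ 2, and at 42.4 to 147 FPKM in the other samples. By group the erythroid sums ranged from 40624 to 76731 FPKM in controls, 14691 to 97601 in Nampt++ samples and 36510 to 114432 in Nampt+ samples, with no marker found at 0. Leaving the haemoglobin genes out of the fits changed no call of a member. The part of red cell precursors in the levels of Rsad2 was not tested.

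The highest and the lowest sample of Mx1 and Mx2 were also those of the summed NK cell markers. Summed T cell and B cell markers matched these samples in part. The 7 NK cell markers summed to 409 FPKM in control 1, the highest sum, and to 70.1 FPKM in Nampt+ 2, the lowest. Of the single markers, each was highest in control 1 except Klrb1a, which was highest in Nampt++ 1 at 39.0 FPKM. Only Klrb1c and Prf1 were lowest in Nampt+ 2. The 8 T cell markers were lowest in Nampt+ 2 at 318 FPKM and in control 2 at 474 FPKM, the 2 lowest samples of Mx1, but highest in control 3 at 1176 FPKM, above control 1 at 1080 FPKM. The 5 B cell markers found summed to 668 FPKM in control 3, the highest sum, and to 285 FPKM in control 1, and were lowest in control 2 at 137 FPKM, followed by Nampt+ 2 at 156 FPKM. By group T cell sums ranged from 474 to 1176 FPKM in controls, 582 to 935 in Nampt++ samples and 318 to 1055 in Nampt+ samples, and NK cell sums from 150 to 409, 85.6 to 197 and 70.1 to 239 FPKM. In the same order B cell sums ranged from 137 to 668, 216 to 292 and 156 to 332 FPKM. No marker of these 3 lists was at 0, and their part in the levels of Mx1 and Mx2 was not tested. None of the neutrophil, monocyte, erythroid, T cell, B cell, NK cell or plasmacytoid dendritic cell markers was called between groups in edgeR, beside 0.497% to 0.686% of all genes tested. Cd5, a T cell marker, had the lowest p of these markers in Nampt+ against Nampt++ samples at a ratio under 2 (edgeR p 0.00278 unadjusted, exact permutation p = 0.143). That permutation did not keep samples of 1 rat together as pairs, and 2.28% of all genes tested had an edgeR p under 0.05 there. Among 6 platelet markers Ppbp was called lower in Nampt++ samples than in controls at a ratio of 0.443 (edgeR p 0.0283 unadjusted, exact permutation p = 0.114). In that comparison 0.686% of all genes tested were called. The other platelet markers were not called and went both ways. Their log2 fold changes were 0.37 for Pf4, 0.36 for Gp9, 0.08 for Itga2b, -0.04 for Gp1bb and -0.38 for Tubb1.

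**Figure D3:**
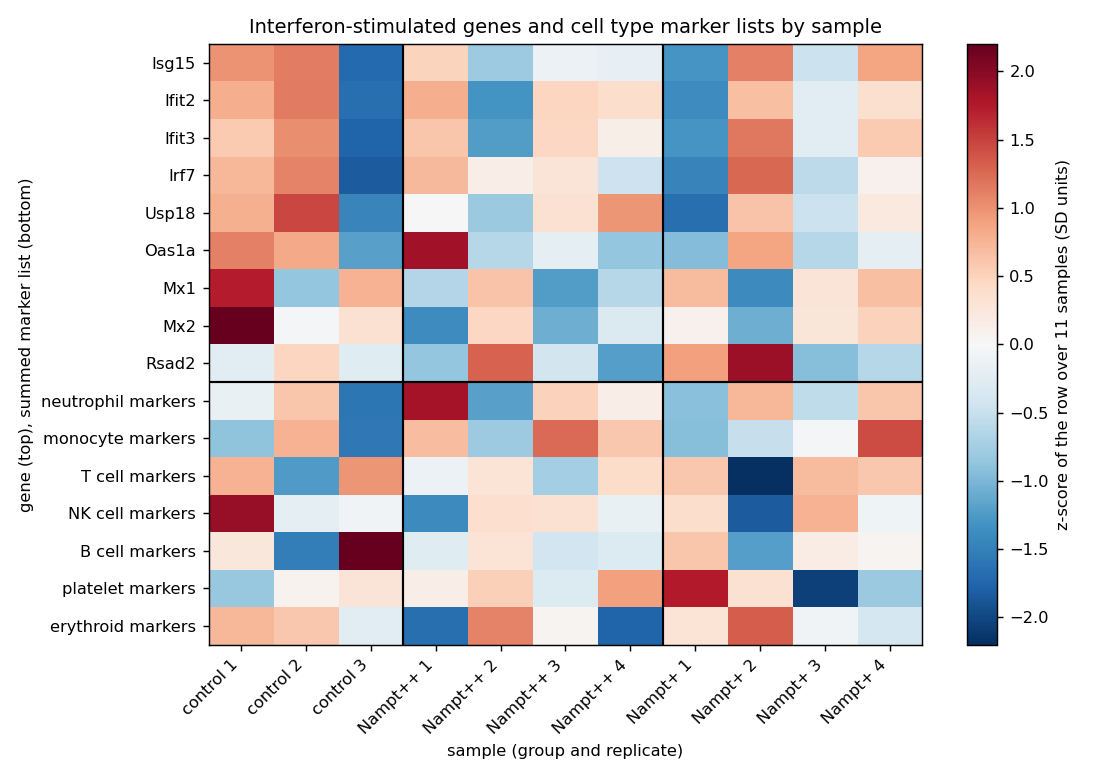
Z-scores over the 11 samples, in SD units, of the 9 genes (log2 CPM with TMM factors, top) and of the log2 summed FPKM of 7 marker lists (bottom), with samples in columns and lines between groups. The first 6 genes are blue in control 3 and Nampt+ 1, Mx1 and Mx2 are most red in control 1, and Rsad2 is most red in Nampt+ 2 and Nampt++ 2.

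The interferons themselves were barely detected. Of 12 listed genes 11 were in the table, and 8 to 10 of these were listed at 0 in any sample. Ifng, the type II interferon of T and NK cells, was the only one with enough expression to be tested. It was at 16.1, 3.14 and 0.73 FPKM in controls, at 0.00 to 6.10 FPKM in Nampt++ samples and at 0.83 to 3.62 FPKM in Nampt+ samples. Control 1, the highest sample for Mx1 and Mx2, was also the highest for Ifng. Its log2 fold change was -1.56 (SE 1.44) in Nampt++ and -1.84 (SE 0.91) in Nampt+ samples against controls, and it was not called. Ifnb1 did not exceed 1.79 FPKM.

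Receptors and signalling genes were expressed but not called. Of the 5 interferon receptor genes tested, 0 were called in any comparison by edgeR, with an unadjusted p under 0.05 in 0 cases. Over all genes tested 0.497% to 0.686% were called, and 0.87% to 2.28% had an unadjusted p under 0.05. Ifngr1, the ligand-binding chain for interferon gamma, averaged 242 FPKM over all samples, Ifngr2 averaged 66.4 and Ifnar1, a chain of the type I receptor, averaged 58.4 FPKM. All 5 had a positive log2 fold change in Nampt++ samples against controls (median 0.38), where 49.6% of all genes tested had a negative one. In Nampt+ against Nampt++ samples all 5 were negative (median -0.30), beside 50% of all genes tested. Both comparisons use the same Nampt++ samples, so the opposite signs are not separate evidence. Of 6 listed genes of the kinases, the STAT proteins and their partner Irf9, 5 were tested (Jak1, Jak2, Tyk2, Stat2 and Irf9), and none was called or had p under 0.05. Jak1, at 87.8 FPKM, Irf9, at 37.8, and Stat2, at 26.8, had the highest means.

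Of the 9 interferon regulatory factors, Irf7 had the highest mean at 196 FPKM, ahead of Irf1 at 142 and Irf3 at 78.9, and none was called. Irf5, an activator of inflammatory genes, alone had p under 0.05, at 0.0388 by edgeR for Nampt+ against Nampt++ samples (exact permutation p = 0.171), with 19.6 ± 7.08 against 26.1 ± 3.46 FPKM. The 16 sensors and adaptors found, led by Myd88, Tmem173 (STING) and Ikbke, gave no call. Among them Zbp1 alone had p under 0.05 (edgeR p 0.0484, exact permutation p = 0.371, log2 fold change 0.47 in Nampt+ against Nampt++ samples). In that comparison 2.28% of all genes tested had p under 0.05. Over the 3 comparisons 0.497% to 0.686% of all genes tested were called. Of the 10 inhibitors of interferon signalling none was called, and none had p under 0.05. Tnfaip3 (249 FPKM), Isg15 and Socs3 (185 FPKM) were the highest of these. In the set of Isg15 conjugation, all 6 genes had negative log2 fold changes in Nampt++ samples against controls (median -0.27), beside 49.6% of all genes tested. Isg15 and Usp18 of this set are also members and were counted above. None of the 6 was called and none had p under 0.05.

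A list of 85 other interferon-stimulated genes, of which 75 were in the table, was set beside the 9 members. In Nampt++ samples against controls 1 of 68 tested was called higher and 0 lower, beside 0.33% and 0.357% of all genes tested. The median log2 fold change was 0.07. The called gene was Ifit1, of the same family as Ifit2 and Ifit3, at 141, 35.3, 21.5 and 70.5 FPKM in Nampt++ samples and 10.9, 21.3 and 24.6 FPKM in controls. The groups overlapped through Nampt++ 3. Its ratio was 3.54 and its log2 fold change 1.72 (SE 0.61), an unadjusted edgeR p of 0.0234, an adjusted p of 0.9999 and an exact permutation p of 0.114. Ifit2 and Ifit3, in contrast, had log2 fold changes of -0.23 and -0.27 in that comparison, and the difference between the genes was not tested. Of the list, 3 genes had p under 0.05 in this comparison, beside 1.57% of all genes tested. Those besides Ifit1 were lower in Nampt++ samples and not called. Ifi44 was at 7.66 ± 1.73 against 13.5 ± 5.94 FPKM, with a log2 fold change of -0.85 (edgeR p 0.0248, exact permutation p = 0.114). Pnpt1, an exoribonuclease of mitochondria, was at 4.70 ± 0.67 against 6.19 ± 2.07 FPKM, with a log2 fold change of -0.39 (edgeR p 0.0369, exact permutation p = 0.286).

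No gene of this list was called in the other comparisons, as 0.497% and 0.642% of all genes tested were. In Nampt+ samples against controls 67 were tested, 45 had a negative log2 fold change, beside 50.7% of all genes, and the median was -0.06. An unadjusted edgeR p under 0.05 was seen in 0.87% of all genes there. Rtp4, a chaperone of receptors, alone had p under 0.05 there (edgeR p 0.00936, exact permutation p = 0.0571, the smallest possible), at 4.56 ± 1.75 against 8.57 ± 2.80 FPKM with no overlap between the groups, as 0.444% of all genes had. In Nampt+ against Nampt++ samples 47 of 68 were negative with a median of -0.10, beside 50% of all genes. Of the 68, 0 had p under 0.05, as 2.28% of all genes did. Ifitm1, Slfn2 and Ifi27l2b were the most abundant of the list, with means of 451, 356 and 294 FPKM.

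**Figure D4:**
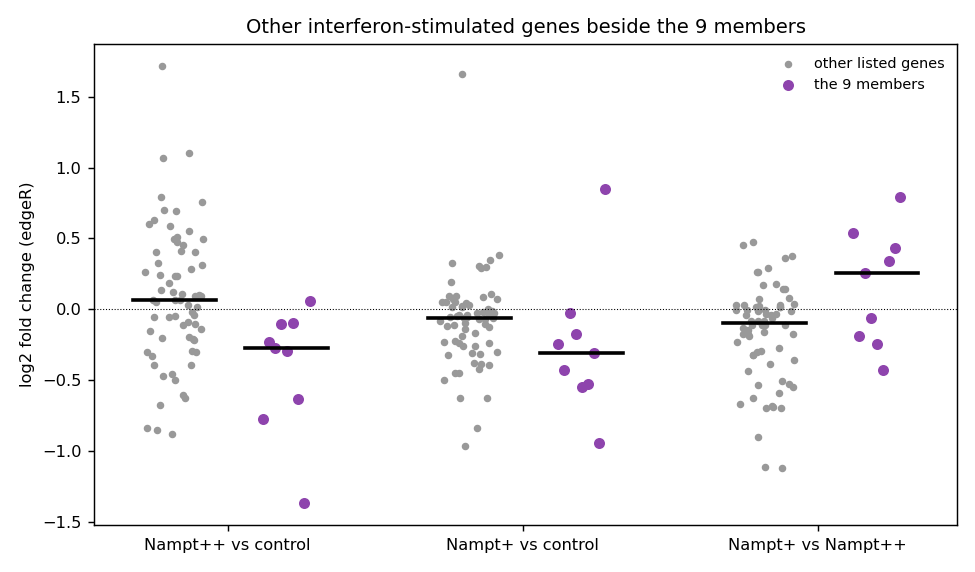
Log2 fold changes by edgeR (vertical axis) of other listed interferon-stimulated genes (grey, 67 or 68 tested) and of the 9 members (purple) in 3 comparisons, with black lines at the medians. The medians of the members are -0.27, -0.31 and 0.25, and those of the other genes 0.07, -0.06 and -0.10.

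The genes whose pattern over the 11 samples was most like the mean z-score of the 9 members were sought among 11233 others. As Mx1, Mx2 and Rsad2 differed in pattern from the other members, this mean blends different patterns and stands for no single set. Oas2, another oligoadenylate synthetase, stood first with a Pearson r of 0.93 and a rho of 0.91, at 0.81 to 4.37 FPKM. It was followed by Osm, a cytokine of the interleukin-6 family (r = 0.90), Ptgs2, the inducible cyclooxygenase (r = 0.90), and Ier2, an immediate early gene (r = 0.87). AABR07005031, AABR07041096, Junb and Retnlg had r of 0.84 to 0.85. Without the 2 samples farthest from the median of the score, r lay between 0.77 and 0.92 for the 8 genes. Osm was at 9.64 and 9.67 FPKM in control 3 and Nampt++ 2 and reached 151 FPKM in control 1. As these genes were picked for their likeness over samples that share rats and normalization, no p is given.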

How the data were processed

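Poly(A) RNA of WBCs was sequenced as 2×150 paired-end reads from libraries with a U-labelled second strand. The submitters' notes name cutadapt 1.9, HISAT2 2.0.4 and StringTie 1.3.4; the genome build and the counting program are not given in the sources used here. The authors deposited counts per gene, not normalized, and FPKM values, in which 0.0001 was read as 0. Both came in 1 table for 11 samples, and the columns were matched to samples by name.

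Each group was compared with each other group by edgeR 4.0.16 in R 4.3.3 (quasi-likelihood test, TMM, genes at 1 FPKM or more on average, Benjamini-Hochberg adjustment over all genes tested). The main fits held no term for the rat. SDs are of FPKM. The extent of a gene is given as deposited, and promoters as in GRCr8. With these depths the number of rats, not counting, limits precision. Alternatives were RLE or upper quartile scaling, no filter or one at 10 FPKM, haemoglobin genes left out, DESeq2 1.42.0, limma 3.58.1 on log2(FPKM + 1) or log2(FPKM + 0.1), all groups in 1 fit, a replicate block, other call rules and leaving out each sample. The test was tried on simulated counts. Exact two-sided permutations of log2(FPKM + 1), run for the members and for Ifit1, Ifi44, Pnpt1, Rtp4, Irf5, Zbp1, Cd5 and Ppbp in each comparison, were added with the values already in view. They moved samples freely between groups, so in Nampt+ against Nampt++ samples they ignored the pairs from 1 rat.

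The Nampt++ and Nampt+ samples of a number come from 1 rat, and over all genes tested their departures from the mean of each group correlated at -0.19, -0.18, 0.18 and 0.13 for rats 1 to 4. The block changed no call of a member in that comparison. Replicates were compared by chi-square and none was a duplicate.

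The members and the gene lists were chosen with earlier results of these data known. Named are all members, up to 4 called genes of each list or else up to 3 with the highest mean FPKM, and the 8 genes most like the members' mean z-score. Others were named after their values were seen. Some listed genes were not analysed here.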

Additional observations from a re-analysis of the deposited data

Results flagged for a closer look

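In 18 groups of 4 samples the highest and lowest values were set against Dixon's critical value, which chance passes in about 1 of 20 groups, and 3 samples stood apart. Mx1 was at 12.5 FPKM in Nampt+ 2, against 47.9 to 55.2 FPKM in the other Nampt+ samples. Rsad2 was at 92.4 FPKM in Nampt++ 2, against 18.5 to 28.4 FPKM in the other Nampt++ samples. Oas1a was at 46.5 FPKM in Nampt++ 1, against 8.02 to 11.8 FPKM in the rest of its group. In summed markers these samples were low for T and NK cells (Nampt+ 2), high for erythroid cells (Nampt++ 2) and for neutrophils (Nampt++ 1). The part of these cells in the values was not tested. Groups of 3 were not examined.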

How the results depend on the processing

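In Nampt++ samples against controls the number of members called was 1, and 0 with a mean FPKM of at least 10, with limma on log2(FPKM + 0.1), with the replicate block or with an adjusted p alone, the first of which leaves Mx2 untested. Leaving out 1 sample gave 0 to 2 there, 0 to 1 in Nampt+ samples against controls and 0 to 1 in Nampt+ against Nampt++ samples. The median over members ranged from -0.69 to 0.18, -0.75 to 0.020 and -0.27 to 0.31 in the same order. By limma, with either pseudocount, Nampt++ against control values turned to 0.017 for Ifit2, 0.081 or 0.082 for Ifit3 and 0.15 for Irf7, and to -0.27 or -0.29 for Rsad2, and the Nampt+ value of Ifit3 against controls turned to 0.085 or 0.087. With the replicate block Irf7 was 0.24 and Oas1a 0.095 in Nampt++ samples against controls. Against controls this block leaves out Nampt++ 4, whose number no control has, and it pairs different rats. The cause of these turns was not tested.

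Leaving out 1 sample turned the sign of several log2 fold changes. In Nampt++ samples against controls they ran from -0.69 to 0.21 in Ifit2, -0.77 to 0.29 in Ifit3, -0.51 to 0.25 in Irf7, -0.91 to 0.40 in Rsad2, -0.70 to 0.18 in Usp18 and -0.97 to 0.29 in Oas1a. In Nampt+ samples against controls they ran from -0.75 to 0.16 in Isg15, -0.60 to 0.077 in Mx1, -0.89 to 0.020 in Ifit2, -0.56 to 0.55 in Ifit3 and -0.62 to 0.19 in Irf7. In Nampt+ against Nampt++ samples they ran from -0.47 to 0.076 in Ifit2, -0.27 to 0.57 in Ifit3, -0.50 to 0.17 in Irf7, -0.044 to 1.77 in Rsad2 and -0.89 to 0.45 in Oas1a.

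Over all genes 77, 56 and 72 were called in the 3 comparisons. Without a filter these were 306, 261 and 295, at a mean FPKM of at least 10 they were 25, 14 and 19, and by adjusted p alone they were 0. DESeq2 called 121 and limma 145 or 140 in Nampt++ samples against controls, and leaving out 1 sample gave 53 to 462, 49 to 136 and 58 to 165. The controls and CIA rats share only replicate numbers. Pairing them by a block, which leaves out Nampt++ 4, gave 27 higher and 30 lower genes in Nampt++ samples. A block by rat left the count of members in Nampt+ against Nampt++ samples at 0.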
